A study of Mus musculus with 4 samples.

Results

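Primitive endoderm (PrE) genes were examined in mouse RNA-seq of 4 samples, 1 per condition. The set holds 9 genes of the primitive and visceral endoderm, Sox7, Sox17, Foxa2, Pdgfra, Dab2, Hnf4a, Ttr, Afp and Cubn, which were chosen by name and found by Ensembl identifier among the 37620 genes counted. The study asked how signaling inputs move mouse embryonic stem cells (mESCs) between pluripotency and early lineages. Of the 4 samples, 3 were R1 mESCs, an established mouse line, grown for 2 days in serum-containing, feeder-free medium with CHIR99021 (3 µM), which inhibits GSK3, and PD0325901 (1 µM), which inhibits MEK. The first mESC sample had only these inhibitors and no LIF (2i−L), the second had in addition a JAK inhibitor at 2 µM (2iJ), and the third had the JAK inhibitor together with 10 ng/ml BMP4 and 10 µM of an inhibitor of the receptor ALK5 (2iJ+B−A). In the paper the ALK5 inhibitor serves to block Activin A/Nodal signaling, for which −A stands. The fourth sample was trophoblast stem cells (TSCs) of the F4 line, labelled day 2, with no treatment named in the labels. Each cell type is thus represented by a single line, and in the comparisons with TSCs the line, the cell type and the medium cannot be told apart. Per the paper, its RNA-seq experiments fell on 2 distinct days, and batch effects between them were adjusted. The raw counts used here carry no such adjustment, and the paper does not say which samples shared a day.

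The primitive endoderm is the extraembryonic layer that separates from the epiblast in the inner cell mass of the blastocyst, and it gives rise to the visceral endoderm, which surrounds the egg cylinder, and the parietal endoderm, which lays down a thick basement membrane. Gata6 and Gata4 stand early in its program, followed by Pdgfra and the Sox factors Sox17 and Sox7, while Hnf4a and Foxa2 act in the visceral endoderm on genes of secreted proteins such as Afp and Ttr. The visceral endoderm takes up maternal proteins through the receptors cubilin and megalin with the adaptor Dab2, and the formation of the layer in the embryo depends on FGF and MEK signaling.

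Between 33913984 and 36964392 read pairs were counted on genes in each sample. Levels are given as counts and as CPM, in which counts are brought to a common library size, with library sizes scaled by edgeR's TMM factors, and the detection limit was set at 3 counts, which is 0.0799 to 0.0902 CPM depending on the sample. A gene was taken as past 2-fold when the log2 ratio of its CPM, after adding 0.5 CPM, was at least 1 in size, among the 14263 genes that reached 1 CPM in some sample. Of the 9 genes, 6 met this minimum, whereas Sox7, Afp and Ttr did not. Sox17 and Foxa2 met it only through the 1 sample in which each was highest. Intervals are 95% intervals for counting error only, from the Poisson distribution for levels and from the Clopper–Pearson method for ratios. With 1 sample per condition no difference here has a replicate check, and the report gives no test between conditions. An exact test with an assumed spread was used only as an alternative. The labelled cell types were read first with 1 marker each. Pou5f1, the gene of Oct4, was at 899, 885 and 658 CPM in the mESC samples and at 1.34 CPM in TSCs, whereas Elf5, a trophoblast stem cell factor, was at 298 CPM in TSCs and at most 0.133 CPM in mESCs. Between TSCs and 2iJ, 7 of 8 trophoblast stem cell genes were past 2-fold higher and 7 of 8 pluripotency genes lower, where 19.4% and 17.6% of all genes were. Not all markers separated the samples. Esrrb was at 578, 476 and 302 CPM in the mESC samples and 248 CPM in TSCs. Sox2 was at 154 CPM in TSCs, and Cdx2 at 33.6 CPM in 2iJ+B−A against 45.1 CPM in TSCs.

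The 9 genes did not share one pattern over the samples. Pdgfra, Sox17 and Cubn were highest in 2iJ+B−A, Foxa2 was highest in TSCs, and Hnf4a was at a like low level in the 3 mESC samples and at 0 counts in TSCs. Dab2 was the most abundant of the 9 per exon length in every sample, and Afp and Ttr were at or near 0 in all 4. Summed over the 9 genes the level was 11.6 CPM for 2i−L, 20.9 CPM for 2iJ, 43.2 CPM for 2iJ+B−A and 28.9 CPM for TSCs, of which Dab2 alone made up between 45.7% and 73.2%. In bulk RNA of this kind, fewer cells of a type and less RNA per cell cannot be told apart.

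**Figure D1:**
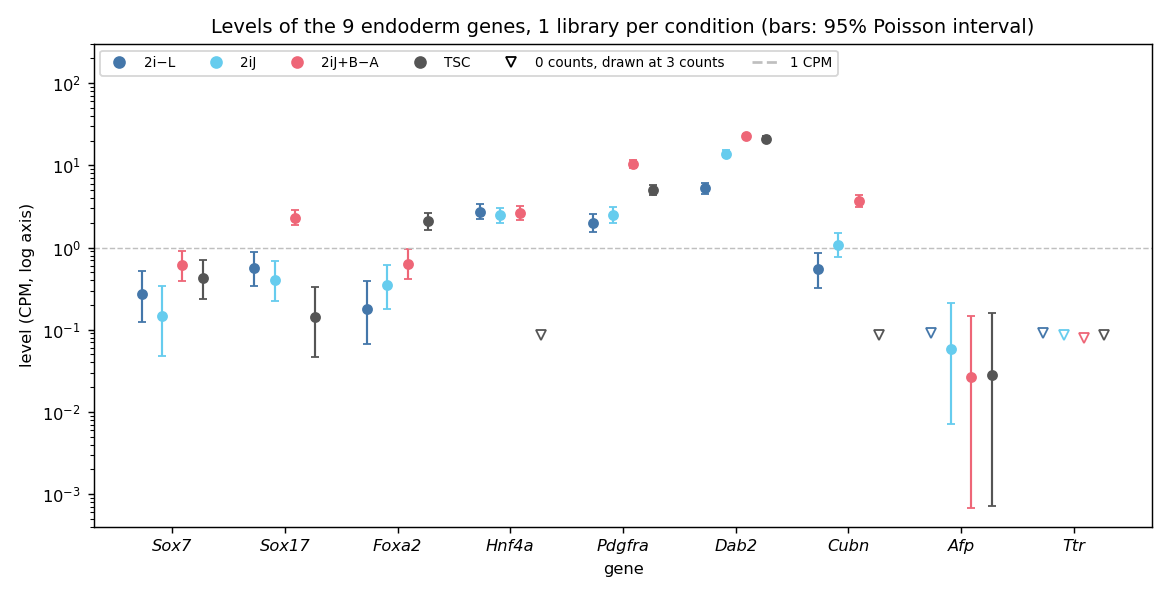
Level of each of the 9 genes in each sample in CPM on a log axis, with the 95% Poisson interval of its count. Open triangles mark 0 counts and are drawn at the level of 3 counts. The dashed line is 1 CPM. Sox17, Pdgfra and Cubn peak in 2iJ+B−A at 2.32, 10.4 and 3.73 CPM, Foxa2 peaks in TSCs at 2.08 CPM, and Hnf4a and Cubn are at 0 in TSCs.

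Among the transcription factors, Sox17 (ENSMUSG00000025902, chr1:4481009-4486494 of NCBIM37, minus strand) is a SoxF factor that acts in both primitive and definitive endoderm. It had 19 counts in 2i−L (0.571 CPM), 14 for 2iJ (0.408 CPM), 87 for 2iJ+B−A (2.32 CPM) and 5 for TSCs (0.142 CPM). The 2iJ+B−A sample stood above the other three, with a level 5.68-fold that of 2iJ (interval 3.21 to 10.8) and 4.05-fold that of 2i−L (2.45 to 7.05). TSCs were 16.3-fold lower than 2iJ+B−A (6.71 to 51.3). The intervals of the ratios among 2i−L, 2iJ and TSCs that are neighbours in level included 1. Between the outer 2 of these samples, TSCs were 4.01-fold lower than 2i−L (1.449 to 13.75).

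Sox7 (ENSMUSG00000063060, chr14:64562511-64569569, plus strand), the SoxF relative of Sox17 and a marker of primitive and parietal endoderm, was below 1 CPM throughout. It had 9 counts in 2i−L (0.271 CPM), 5 for 2iJ (0.146 CPM), 23 for 2iJ+B−A (0.612 CPM) and 15 for TSCs (0.427 CPM). The 2iJ+B−A sample came first, but no pair of neighbours in the order of the 4 samples was separated by an interval that left out 1. The ratio of 2iJ+B−A to 2iJ, the highest and the lowest sample, was 4.21 (interval 1.56 to 14.2), which on the log2 scale after adding 0.5 CPM was 0.78 and short of 2-fold. Sox18, the third SoxF gene and one known from endothelium, had between 1 and 7 counts in each sample, so that the SoxF counts in 2iJ+B−A were almost all of Sox17 and Sox7.

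Foxa2 (ENSMUSG00000037025, chr2:147868613-147872705, minus strand), a forkhead factor of visceral and definitive endoderm and of the node, had a different order. It had 6 counts in 2i−L (0.18 CPM), 12 for 2iJ (0.349 CPM), 24 for 2iJ+B−A (0.639 CPM) and 73 for TSCs (2.08 CPM). TSCs stood apart, at 3.26-fold the level of 2iJ+B−A (interval 2.03 to 5.4) and 5.95-fold that of 2iJ (3.21 to 12.0). The ratio of 2iJ+B−A to 2iJ was 1.83 (0.879 to 4.01) and that of 2iJ to 2i−L was 1.94 (0.673 to 6.29), and both intervals include 1. Of its relatives, Foxa1 had 15, 12, 35 and 9 counts in 2i−L, 2iJ, 2iJ+B−A and TSCs, and Foxa3 had 54, 33, 14 and 99. The 3 Foxa genes were thus highest in different samples, Foxa1 in 2iJ+B−A and Foxa2 and Foxa3 in TSCs.

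Hnf4a (ENSMUSG00000017950, chr2:163332544-163398646, plus strand) is a nuclear receptor of the visceral endoderm and later of the liver and gut. It had 91 counts in 2i−L (2.74 CPM), 85 for 2iJ (2.48 CPM), 100 for 2iJ+B−A (2.66 CPM) and 0 for TSCs. The 3 mESC samples could not be separated at this depth, with a ratio of 1.08 between 2iJ+B−A and 2iJ (interval 0.797 to 1.45) and of 0.905 between 2iJ and 2i−L (0.665 to 1.23). Taken at the detection limit of 3 counts, TSCs were at least 28.97-fold lower than 2iJ and at least 31.15-fold lower than 2iJ+B−A, and the wider 95% interval of the 0 counts reaches down to 23.05-fold and 24.87-fold.

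Among the receptors and adaptors, Pdgfra (ENSMUSG00000029231, chr5:75548316-75594229, plus strand) encodes the platelet-derived growth factor receptor alpha, an early surface marker of primitive endoderm that is also expressed in early mesoderm. It had 66 counts in 2i−L (1.99 CPM), 86 for 2iJ (2.5 CPM), 391 for 2iJ+B−A (10.4 CPM) and 177 for TSCs (5.04 CPM). The 2iJ+B−A sample was at 4.16-fold the level of 2iJ (interval 3.28 to 5.31). TSCs lay between, 2.06-fold below 2iJ+B−A (1.72 to 2.48) and at 2.01-fold the level of 2iJ (1.55 to 2.64), and both of these log2 ratios after adding 0.5 CPM, −0.98 and 0.88, were just short of the 2-fold threshold. The ratio of 2iJ to 2i−L was 1.26 (0.905 to 1.77).

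The other genes of the PDGF pathway in a list of 6 were its ligands and the second receptor. Between 2iJ and 2iJ+B−A, 2 of the 6 were past 2-fold higher, Pdgfra itself and Pdgfb, a ligand that binds both receptors, which went from 4.08 to 10.6 CPM (log2 ratio 1.27), where 5.81% of all genes were higher. None of the 6 was past 2-fold lower in this comparison. Pdgfa, the ligand of the alpha receptor, was the most abundant of them per exon length in 2iJ+B−A, with 25.7 CPM per kb against 1.54 CPM per kb for Pdgfra. In CPM it went from 51.4 to 80.2, a log2 ratio of 0.64 that was short of 2-fold. The median log2 ratio of the 6 genes was 0.79, and 0.64 for the 5 without Pdgfra, against 0 over all genes tested.

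Dab2 (ENSMUSG00000022150, chr15:6249788-6390712, plus strand) encodes a cargo adaptor that links megalin and its relatives to clathrin, and the visceral endoderm needs it for uptake. It had 176 counts in 2i−L (5.29 CPM), 477 for 2iJ (13.9 CPM), 858 for 2iJ+B−A (22.8 CPM) and 742 for TSCs (21.1 CPM). It was the only one of the 9 genes past 2-fold between 2iJ and 2i−L, at 2.62-fold in 2iJ (interval 2.2 to 3.14). The step from 2iJ to 2iJ+B−A was smaller, 1.64-fold (1.47 to 1.84), and TSCs and 2iJ+B−A overlapped, with a ratio of 0.925 (0.838 to 1.02). A second identifier with the name Dab2, ENSMUSG00000079102, lies inside the first on the same strand and had 0 counts in all 4 samples.

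Cubn (ENSMUSG00000026726, chr2:13197965-13413551, minus strand) encodes cubilin, the endocytic receptor that works with megalin. It had 18 counts in 2i−L (0.541 CPM), 37 for 2iJ (1.08 CPM), 140 for 2iJ+B−A (3.73 CPM) and 0 for TSCs. All 4 samples were separated in this order, since 2iJ was at 1.99-fold the level of 2i−L (interval 1.1 to 3.71) and 2iJ+B−A at 3.46-fold that of 2iJ (2.39 to 5.11). Taken at 3 counts, TSCs were at least 12.61-fold lower than 2iJ and at least 43.61-fold lower than 2iJ+B−A, and the 95% interval reaches down to 9.752-fold and 35-fold. On the opposite strand of Cubn, where the annotation has the lincRNA Gm13270, there were 0, 3, 7 and 11 counts in 2i−L, 2iJ, 2iJ+B−A and TSCs. Gm13270 itself had 1, 2, 4 and 2 counts.

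The complex to which cubilin and Dab2 belong was described with a list of 6 genes. Lrp2, which encodes megalin, had 1520 counts in 2i−L (45.7 CPM), 3954 for 2iJ (115 CPM), 6543 for 2iJ+B−A (174 CPM) and 107 for TSCs (3.05 CPM). Its order across the samples was that of Cubn, with 2iJ+B−A at the top and TSCs at the bottom, and the level in TSCs was low but above 0. Its log2 ratio was 1.32 between 2iJ and 2i−L, 0.59 between 2iJ+B−A and 2iJ and −5.03 between TSCs and 2iJ. Amn, which encodes the amnionless subunit that cubilin needs to reach the cell surface, had only 20, 22, 32 and 44 counts in 2i−L, 2iJ, 2iJ+B−A and TSCs. Its order therefore put TSCs first, where Cubn was at 0.

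Per exon length, Cubn was the least abundant of these 6 genes in all 4 samples. In 2iJ+B−A it was at 0.315 CPM per kb, against 0.506 for Amn, 3.11 for Dab2 and 10.4 for Lrp2. The most abundant of the list was Lrpap1, the chaperone of the LDL receptor family, at 48.8 CPM per kb in 2iJ+B−A. Between 2iJ and 2i−L, 2 of the 6 genes were past 2-fold higher, Dab2 and Lrp2, and 0 lower, where 1.23% and 0.918% of all genes were. Between 2iJ+B−A and 2iJ, 1 was higher, Cubn, and 1 lower, Lrp1, a related receptor of many other tissues, which went from 43.8 to 19.9 CPM, where 5.81% of all genes were higher and 3.17% lower. Between TSCs and 2iJ, 0 were higher and 3 lower, Lrp2, Cubn and Lrpap1, where 19.4% and 17.6% of all genes were. The median log2 ratios of the list in these comparisons were 0.73, 0.42 and −0.52, against 0 over all genes tested. Without Cubn and Dab2 they were 0.52, 0.02 and −0.52, so that the value for 2iJ+B−A rests on these members.

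**Figure D2:**
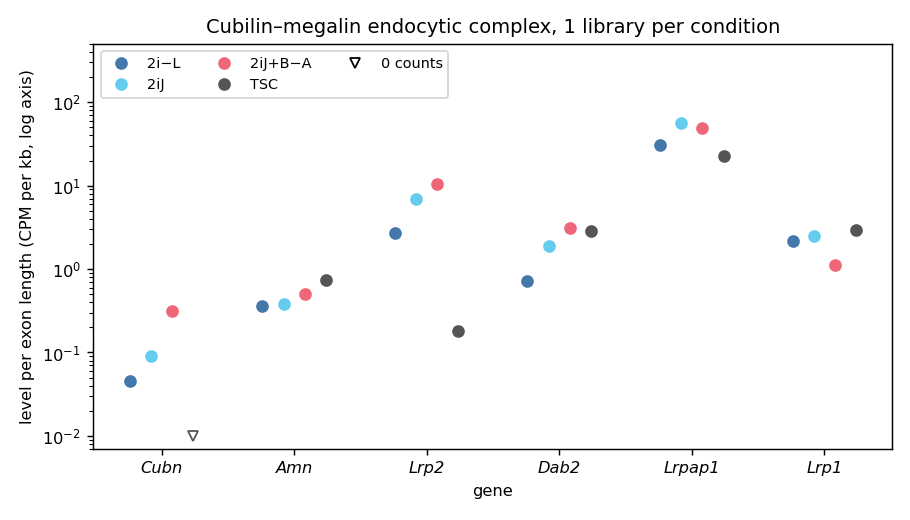
Levels of the 6 genes of the cubilin and megalin list in CPM per kb of exon on a log axis, 1 point per sample. Open triangles mark 0 counts and have no level on the axis. Cubn, Lrp2 and Dab2 climb from 2i−L over 2iJ to 2iJ+B−A, and in TSCs Lrp2 drops to 0.182 CPM per kb while Dab2 stays at 2.88 CPM per kb.

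Among the secreted products of the visceral endoderm, Afp (ENSMUSG00000054932), which encodes alpha-fetoprotein, had 0, 2, 1 and 1 counts in 2i−L, 2iJ, 2iJ+B−A and TSCs. Ttr (ENSMUSG00000061808), which encodes the thyroxine and retinol carrier transthyretin, had 0 counts in all 4 samples. Neither reached 3 counts in any sample, so no ratio is given, and at this depth a level of up to between 0.0799 and 0.0902 CPM would not have been detected. The other albumin family genes were like Afp, with at most 2 counts for Alb, 3 for Gc and 0 for Afm.

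In a list of 15 secreted and transport proteins of the visceral endoderm, Afp and Ttr among them, 5 reached 1 CPM in some sample. Of the 15, 1 was past 2-fold higher in 2iJ+B−A than in 2iJ and 0 were lower, where 5.81% and 3.17% of all genes were, and the median log2 ratio was −0.08. The 1 was Ihh, a hedgehog ligand of the visceral endoderm, with 18 counts in 2i−L, 18 for 2iJ, 88 for 2iJ+B−A and 4 for TSCs. Like Sox17, Ihh reached 1 CPM only in 2iJ+B−A, so that its being counted at all depended on its level there. Apoe, an apolipoprotein made in many cell types, was the most abundant of the list per exon length, with 105 CPM per kb for 2iJ+B−A and 184 CPM per kb for TSCs. Apob, the main apolipoprotein of the yolk sac, stayed under 1 CPM and had 32, 33, 7 and 1 counts in 2i−L, 2iJ, 2iJ+B−A and TSCs.

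To see whether the RefSeq promoters of the genes with the clearest patterns hold letters that the endoderm factors are known to bind, the 250 bases before each annotated start site were searched on both strands. The motif of GATA factors was written as AGATAA, that of forkhead factors as TGTTTAC, that of Sox factors as ATTGTT and that of Hnf4a as CAAAGTCCA. The forkhead and Sox motifs share the letters TGTT and can therefore overlap. Over 32817 promoters of the RefSeq table (GRCm38.p6) they were present in 9.99%, 3.16%, 9.43% and 0.384%. Windows were taken for 6 of the 9 genes. Each window matched the NCBIM37 genome exactly at 1 place on its chromosome, from which the coordinates are given. Entries for Sox7 and Sox17 were not found. Windows on the chromosome of Ttr were left out before this matching. The lack of a Ttr window therefore does not show that the RefSeq table has no entry for it. Shown are the windows of Hnf4a, at chr2:163332343-163332592 on the plus strand, of Pdgfra, at chr5:75548026-75548275 on the plus strand, of Dab2, at chr15:6249539-6249788 on the plus strand, and of Cubn, at chr2:13413504-13413753 on the minus strand, because this window of Hnf4a holds a match and the other three belong to the genes that rose in 2iJ or 2iJ+B−A. They are written 5′ to 3′, and capitals mark the match.
Hnf4a: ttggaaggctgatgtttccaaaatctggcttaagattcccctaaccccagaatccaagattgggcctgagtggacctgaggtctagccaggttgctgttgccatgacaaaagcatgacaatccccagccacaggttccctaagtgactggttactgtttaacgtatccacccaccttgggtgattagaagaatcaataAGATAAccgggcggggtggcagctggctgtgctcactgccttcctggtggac
Pdgfra: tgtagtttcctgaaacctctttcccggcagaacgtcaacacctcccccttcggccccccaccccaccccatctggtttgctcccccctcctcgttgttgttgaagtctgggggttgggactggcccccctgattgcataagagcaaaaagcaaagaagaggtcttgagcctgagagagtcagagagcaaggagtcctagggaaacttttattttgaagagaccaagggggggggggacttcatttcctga
Dab2: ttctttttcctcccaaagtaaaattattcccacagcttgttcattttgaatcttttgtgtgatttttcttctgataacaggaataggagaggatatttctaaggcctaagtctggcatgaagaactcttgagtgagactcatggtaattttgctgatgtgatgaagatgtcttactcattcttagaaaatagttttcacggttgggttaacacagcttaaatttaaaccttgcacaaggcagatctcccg
Cubn: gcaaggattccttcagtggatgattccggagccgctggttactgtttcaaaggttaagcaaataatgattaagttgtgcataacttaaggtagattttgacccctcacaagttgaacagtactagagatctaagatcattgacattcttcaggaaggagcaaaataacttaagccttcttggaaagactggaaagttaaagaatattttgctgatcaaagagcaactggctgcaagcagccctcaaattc

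Of the windows of Hnf4a, the one shown held AGATAA 52 bases before the start site, and a second one, for a start 40347 bases into the gene, held none of the 4 motifs. The windows of Pdgfra, Dab2 and Cubn held none either. Of the other windows, that of Afp held none, and of the 3 of Foxa2 the one that lies 1505 bases into the annotated gene held AGATAA 183 bases before its start. Dab2 has a second annotated start 86960 bases into the gene, whose window also held none. A match of 6 letters is a description and not a site, and its absence says only that these letters are not in this window. The windows differed in base composition, with 54.4% GC for Pdgfra, 51.2% for Hnf4a, 39.6% for Cubn and 36.8% for the first start of Dab2, against a median of 52.4% over all promoters. The second window of Dab2 had 60% GC and 17 CG dinucleotides, where the median promoter had 6 and the first window of Dab2 had 2.

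The comparison of 2iJ with 2i−L shows what the JAK inhibitor went with on a 2i background. Of the 9 genes, 1 was past 2-fold higher in 2iJ, Dab2, where 1.23% of all genes tested were higher. None of the 9 was past 2-fold lower, where 0.918% of all genes were, a share at which 0 of 9 is no result about the set. The median log2 ratio of the 9 genes was 0.16, against 0 over all genes tested. Cubn, with a ratio of 1.99 and a log2 ratio after adding 0.5 CPM of 0.6, came next.

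The comparison of 2iJ+B−A with 2iJ shows what BMP4 and the ALK5 inhibitor went with together, and their parts cannot be told apart. Of the 9 genes, 3 were past 2-fold higher in 2iJ+B−A, Sox17 (log2 ratio 1.63, interval 1.17 to 2.03), Pdgfra (1.86, 1.57 to 2.16) and Cubn (1.42, 1.02 to 1.81), where 5.81% of all genes tested were higher. None was lower, where 3.17% of all genes were. The median log2 ratio of the 9 genes was 0.70, with Dab2 in the middle of the order. Since Sox17 reached 1 CPM only in 2iJ+B−A, its place among the genes compared depended on its level there. A plain ratio of at least 2 with an interval above 1 was also asked for, among genes with more than 3 counts in at least 1 of the 2 samples. Sox7 then joined Sox17, Pdgfra and Cubn, and 7.85% of 18098 genes were higher. This last rule was chosen after seeing the data.

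TSCs differed from the mESC samples in both directions. Compared with 2iJ, 1 of the 9 genes was past 2-fold higher in TSCs, Foxa2 (log2 ratio 1.6), where 19.4% of all genes tested were higher. Lower were 2, Hnf4a (−2.57) and Cubn (−1.66), where 17.6% of all genes were lower. Compared with 2iJ+B−A, 1 was higher, Foxa2 (1.18), where 16.4% of all genes were higher, and 3 were lower, Sox17 (−2.13), Hnf4a (−2.66) and Cubn (−3.08), where 16.2% of all genes were lower. With backgrounds of this size, counts of 1 to 3 of 9 genes are no result about the set, and Foxa2 reached 1 CPM only in TSCs, so its place among the genes compared depended on its level there. The 2 comparisons share the TSC sample, as those with 2iJ share the 2iJ sample.

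**Figure D3:**
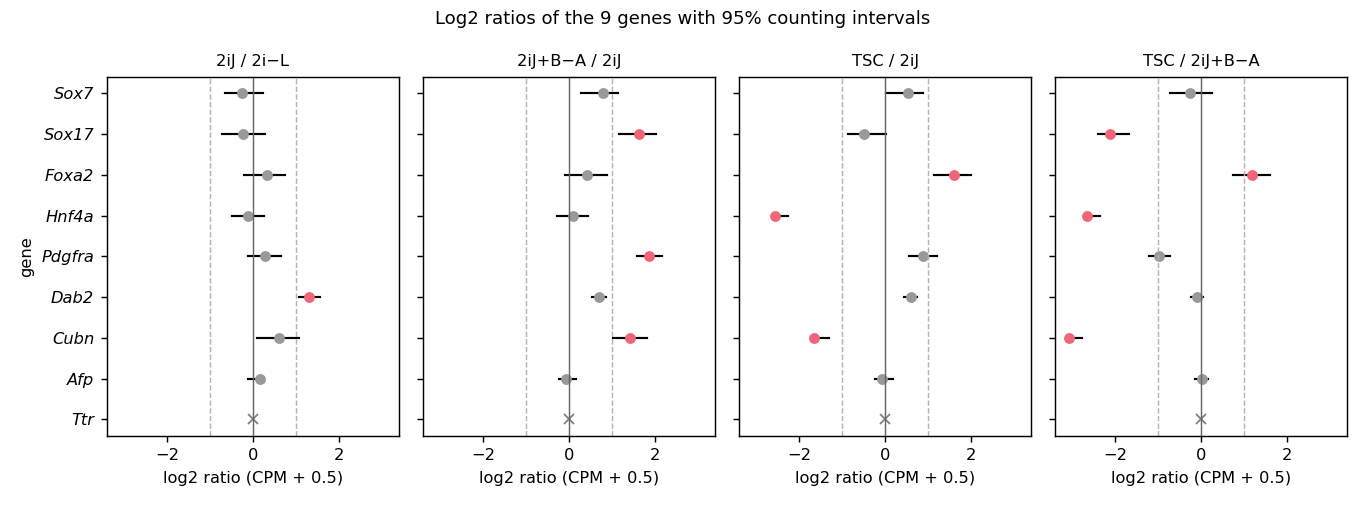
Log2 ratios of CPM after adding 0.5 CPM for the 9 genes in the 4 comparisons, with 95% counting intervals as lines. Red points are past 2-fold (dashed lines), grey points are not, and a cross marks 0 counts in both samples. From 2iJ to 2iJ+B−A, Sox17, Pdgfra and Cubn lie beyond 1, and in TSCs Foxa2 lies beyond 1 on the higher side and Hnf4a and Cubn beyond −1 on the lower side.

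The other transcription factors of a PrE list of 8, with the 4 members Sox7, Sox17, Foxa2 and Hnf4a set aside, were Gata4, Gata6, Foxa1 and Foxq1. Foxa1 stayed under 1 CPM in all samples and so could not be called past 2-fold. Of these 4, 2 were past 2-fold higher in 2iJ+B−A than in 2iJ and 0 lower, Gata6 (log2 ratio 2.57) and Gata4 (1.01), where 5.81% and 3.17% of all genes were. The median log2 ratio of the 4 was 0.88. Gata6, an early factor of the layer, had 24 counts in 2i−L, 26 for 2iJ, 262 for 2iJ+B−A and 136 for TSCs, a pattern with the same order of conditions as Pdgfra. Between TSCs and 2iJ, 3 of the 4 were higher and 0 lower, where 19.4% and 17.6% of all genes were, led by Gata4 with 58 counts in 2iJ and 824 in TSCs. Among these 3, Foxq1 reached 1 CPM only in TSCs (4.44 CPM), so that its being counted at all depended on its level there. Gata4 and Foxa2 were thus highest in TSCs, while Gata6 and Sox17 were highest in 2iJ+B−A.

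Genes of the parietal endoderm and of basement membrane, which include some of the most abundant transcripts of that layer, were read with a list of 12. Of these, 3 were past 2-fold higher in 2iJ+B−A than in 2iJ and 0 lower, where 5.81% and 3.17% of all genes were. In TSCs 8 were higher than in 2iJ and 2 lower, where 19.4% and 17.6% of all genes were, so that the 2 lower of 12 are at the background. Col4a2, a collagen IV chain, rose by 1.71 on the log2 scale from 2iJ to 2iJ+B−A, and Col4a1, its partner, by 1.37. In TSCs over 2iJ, Col4a1 was at 3.64 and the laminin chain Lama1 at −3.67. Sparc, a matrix protein of parietal endoderm, was the most abundant of the list per exon length in every sample except 2i−L, with 110.5 CPM per kb for 2iJ+B−A and 251 CPM per kb for TSCs. The median log2 ratios were 0.49 in 2iJ+B−A over 2iJ and 1.25 in TSCs over 2iJ.

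Genes of the anterior visceral endoderm and of definitive endoderm were read with a list each. Only genes that reached 1 CPM in some sample could be called past 2-fold. These were 5 of the 8 anterior genes and 5 of the 8 definitive endoderm and mesendoderm genes left without Foxa2 and Sox17. Of 8 anterior genes, 1 was past 2-fold higher in 2iJ+B−A than in 2iJ and 1 lower, where 5.81% and 3.17% of all genes were, with a median log2 ratio of −0.35. The higher one was Dkk1, a Wnt antagonist, at 26.9 CPM against 5.27 CPM in 2iJ, and the lower one was Lefty1, a Nodal antagonist, at 0.373 CPM against 128 CPM in 2iJ. Cer1, a further anterior marker, had at most 1 count in any sample. Of the 8 genes of definitive endoderm and mesendoderm that remain without Foxa2 and Sox17, 0 were past 2-fold higher in 2iJ+B−A than in 2iJ and 4 lower, against the same shares of all genes. The largest decrease was in Prdm1, the gene of Blimp1, from 53.6 to 5.14 CPM, and T, the gene of Brachyury, fell from 2.85 to 0.16 CPM. Eomes and Nodal were the other two. Gsc, of the same list, went the other way, with 1 count in 2iJ and 37 in 2iJ+B−A, but stayed under 1 CPM.

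**Figure D4:**
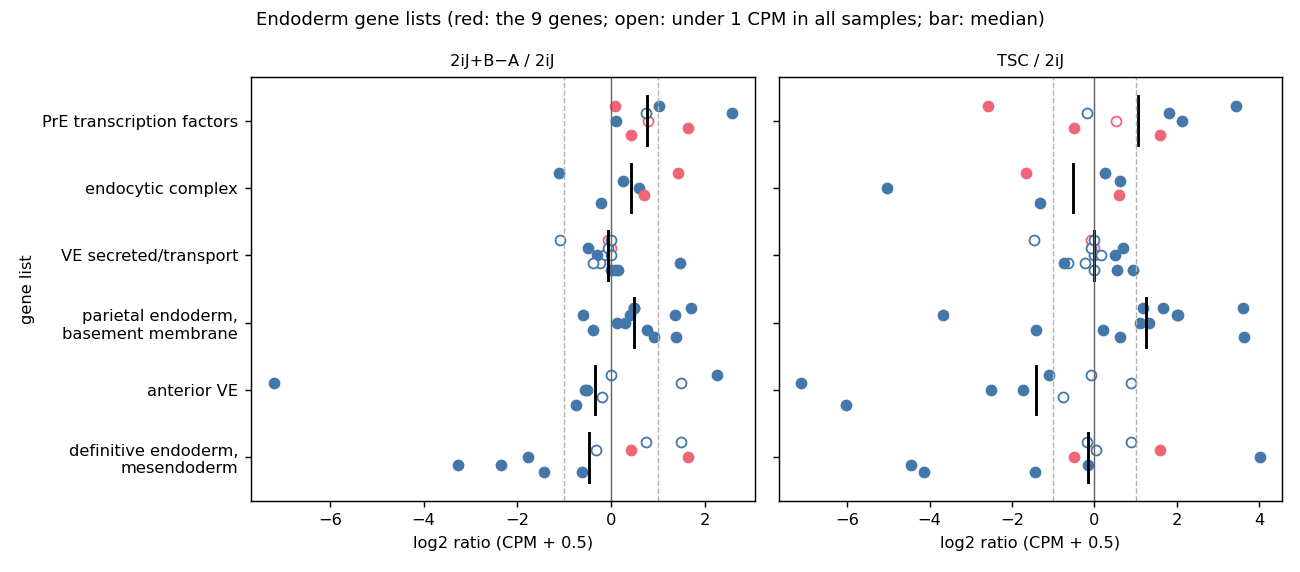
Log2 ratios of CPM after adding 0.5 CPM for each gene of 6 endoderm lists, in 2iJ+B−A over 2iJ and in TSCs over 2iJ. Red points are among the 9 genes, blue points are other genes, open points stayed under 1 CPM in all samples, the bar is the median of the list, and dashed lines mark 2-fold. The PrE transcription factors have a median of 0.77 in 2iJ+B−A over 2iJ, and the secreted and transport proteins of the visceral endoderm (VE) one of −0.08.

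The FGF and MEK pathway, on which the layer depends in the embryo, was read with 9 genes. Between 2iJ+B−A and 2iJ, 2 were past 2-fold higher and 0 lower, where 5.81% and 3.17% of all genes were, with a median log2 ratio of 0.29. The 2 were Spry2 and Spry4, feedback inhibitors of the pathway, with log2 ratios of 1.32 and 1.26. Between TSCs and 2iJ, 4 were higher and 2 lower, where 19.4% and 17.6% of all genes were, among them Etv4, an ETS factor downstream of FGF, at 5.35, and Fgf4, the ligand made by the epiblast, at −7.99. Etv5, a close relative of Etv4, was the other lower gene, at −2.4, so that the list did not move as one. The 2iJ sample had the MEK inhibitor PD0325901 and none is named for TSCs, so that inhibitor and cell type cannot be told apart in this comparison.

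Markers of other cell types that could carry some of the 9 genes were summed beside them, and over all genes tested 5.81% were higher and 3.17% lower in 2iJ+B−A than in 2iJ. Only genes that reached 1 CPM in some sample could be called past 2-fold. In the early mesoderm list without Pdgfra these were 4 of 7, in the endothelial list 3 of 7 and in the fibroblast or feeder list 6 of 8. Among 7 early mesoderm genes without Pdgfra, 2 were past 2-fold higher in 2iJ+B−A than in 2iJ and 1 lower, and the summed level was 4.9, 4.54, 7.67 and 28.9 CPM in 2i−L, 2iJ, 2iJ+B−A and TSCs. The 2 were Foxf1, with 2 counts in 2iJ and 137 in 2iJ+B−A, and Foxc2, and the 1 was T. Mesp1, a defining gene of early mesoderm, had at most 2 counts in any sample. Of 7 endothelial genes, which can share Sox7 and Sox17, 0 were higher and 0 lower in 2iJ+B−A than in 2iJ, with a sum of 11.2 and 9.64 CPM, and Emcn was at 0 throughout. Of 8 fibroblast or feeder genes, which can share Pdgfra, 0 were higher and 1 lower in that comparison, with a sum of 41 and 30.4 CPM. Of 8 trophoblast stem cell genes, 4 were higher and 1 lower in 2iJ+B−A than in 2iJ, among them Hand1, with 45 counts in 2iJ and 3889 in 2iJ+B−A, with a sum of 653 and 615 CPM. Most of the sum in 2iJ was Esrrb, which is also a pluripotency gene and was at 476 and 302 CPM. Of 8 pluripotency genes, 0 were past 2-fold in that comparison, with a sum of 3804 and 2778 CPM. The part of any of these cell types in the levels of the 9 genes was not tested.

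All 9 genes were low. Per exon length the median gene tested was at 5.88 CPM per kb in 2i−L, 5.82 for 2iJ, 6.002 for 2iJ+B−A and 6.55 for TSCs, and the highest value of any of the 9 genes was 3.11 CPM per kb, for Dab2 in 2iJ+B−A, which lay above 37% of the genes tested. Pdgfra in 2iJ+B−A, at 1.54 CPM per kb, lay above 26.3% of them. Sox17 in 2iJ+B−A, at 0.734 CPM per kb, lay above 17.1%, and Foxa2 in TSCs, at 0.877 CPM per kb, above 19.9%. Hnf4a lay above between 13.7% and 15.3% of the genes tested in the mESC samples, and Cubn above 8.56% in 2iJ+B−A.

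For the 3 of the 9 genes with the highest CPM in any sample, the genes with the most similar profile over the 4 samples were found by the Euclidean distance between log2 profiles, each centred on its mean. Closest to Dab2 were Ptprm, a receptor tyrosine phosphatase (distance 0.08), Syt13 (0.17) and Sh3tc2 (0.24). Ptprm had 29 counts in 2i−L, 95 for 2iJ, 184 for 2iJ+B−A and 150 for TSCs. Among the closest to Pdgfra were Parm1 (0.11) and the amyloid precursor gene App (0.23). Parm1 had 471, 625, 2281 and 1136 counts in 2i−L, 2iJ, 2iJ+B−A and TSCs. Closest to Cubn were Rbms3 (0.19), the transcription factor gene Snai2 (0.22) and Gm12790 (0.23), and Rbms3, like Cubn, was at 0 counts in TSCs. With only 4 samples such likeness is common, and 19, 44 and 33 genes lay within a distance of 0.5 of Dab2, Pdgfra and Cubn.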

How the data were processed

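RNA of 4 samples was sequenced as paired 126-base reads from a strand-specific poly-A library. The authors trimmed the reads, mapped them to NCBIM37 with STAR 2.4.2a, per the labels, and deposited raw counts of read pairs per Ensembl gene, with no normalization. STAR counts only pairs that map to 1 place. Neither the annotation release nor the column of the count table used by the authors is given in the sources used here. Counts for the reverse-strand setting were taken, which were 29.1 to 32.1 times those of the forward setting, and 37205 of 37620 identifiers were found in the NCBIM37 annotation. Transcripts of the 9 genes, aligned with minimap2 2.31, matched nowhere else in the genome.

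R 4.3.3 was used with edgeR 4.0.16 for TMM factors and with DESeq2 1.42.0 for the size factors of an alternative, and Python 3.11.15 with scipy 1.17.1, pandas 2.3.3, numpy 2.4.6 and matplotlib 3.10.9 for the rest. Log2 ratios were taken after adding 0.5 CPM, over genes that reached 1 CPM in some sample, and called at 2-fold. Since each condition has 1 sample, edgeR's quasi-likelihood test could not be fitted. Intervals are 95% Poisson or Clopper–Pearson intervals. Reads carry no molecular identifiers, so intervals and the floor of 3 counts cover counting error only. The scripts were tested on simulated data. The 9 genes and the lists were chosen with earlier results of these data known. All 9 genes are named, and from each wider list at most 4 genes per comparison, those with the largest ratios in each direction and the most abundant one. Exceptions are related genes of 1 family. The genes Amn, Eomes, Nodal, Apob, Cer1, Mesp1, Emcn, Esrrb, Sox2, Foxc2 and Sox18 were also named, after their values were seen. The alternatives were the unstranded count, other scaling, pseudocounts, filters, thresholds and reference samples, and edgeR's exact test with an assumed biological coefficient of variation of 0.2 or 0.4. Most genes of the wider lists enter the text only through counts and medians, and some genes are not reported here. Later time points and other samples of the study were not analysed here.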

Additional observations from a re-analysis of the deposited data

Results flagged for a closer look

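Counts on the opposite strand of Cubn, which entered only the alternative with unstranded counts, came to 7 in 2iJ+B−A and 11 in TSCs, above the limit of 3 counts. In TSCs the strand of Cubn itself had 0 counts, so all of the counts there were on the opposite strand. For the other 8 genes the opposite strand had at most 4 counts in any sample.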

How the results depend on the processing

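The count of the 9 genes past 2-fold was within 1.5 times its value with the unstranded count, DESeq2 size factors, no scaling, a pseudocount of 0.1 or 1 CPM, and no filter, in all 4 comparisons. For 2iJ against 2i−L the count of 1 became 0 at 4-fold and 0 under edgeR's exact test with an assumed biological coefficient of variation of 0.2 or of 0.4. For 2iJ+B−A against 2iJ the count of 3 became 0 at 4-fold and 0 at a coefficient of 0.4. For TSCs against 2iJ the count of 3 became 1 at 4-fold and 5 with 2i−L as the reference. For TSCs against 2iJ+B−A the count of 4 became 2 when the mean over the 4 samples had to reach 1 CPM, without Sox17 and Foxa2. Under the same filter the count of 3 became 2 for 2iJ+B−A against 2iJ, without Sox17. It also became 2 for TSCs against 2iJ, without Foxa2. Over all genes, 2iJ+B−A against 2iJ gave 828 higher and 452 lower, 636 and 327 at a coefficient of 0.2, and 26 and 13 at 0.4, and 2iJ against 2i−L gave 175 and 131, 22 and 25, and 0 and 0. The exact test brings both an assumed spread and a threshold on the adjusted p, and which of them caused the losses was not tested. Of 180 alternative log2 ratios of single genes, 24 moved beyond the counting interval, most of them under another pseudocount. The count scored as reversed was 0, but only ratios past 2-fold could be scored so. Another pseudocount cannot change the sign of a ratio, so this 0 says little. With the unstranded count, Cubn in TSCs against 2iJ was at −0.93 and no longer past 2-fold. No paired analysis was possible because each condition has 1 sample and all samples carry the same number in the labels.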
